A study of Mus musculus with 12 samples.

Results

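The genes described here were 10 bile acid synthesis genes, taken by name from the 36047 genes to which the liver transcripts could be assigned: Cyp39a1, Cyp7a1, Cyp7b1, Cyp8b1, Cyp27a1, Hsd3b7, Akr1d1, Amacr, Slc27a5 and Baat. Cyp39a1 was chosen by its measured rise under dietary sulfur amino acid restriction (SAAR), the fold change of SAAR over control mice at each fat content, so its values in the 4 groups are a description with no test. The other 9 were taken for their place in the pathway, with earlier results of these data known. Counts of them are therefore a description and no test of the set. All 10 passed the filter on low counts and were among the 14670 genes tested.

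Liver RNA was sequenced from 12 adult male C57Bl/6J mice, 5 to 6 months of age, single housed and deprived of food for 4 h before euthanasia. Each mouse had eaten a defined diet for 7 days, with 3 mice per group: a regular-fat control diet (RF.Ctrl, 18% of energy from fat), a regular-fat SAAR diet (RF.SAAR), a high-fat control diet (HF.Ctrl, 60% of energy from fat) or a high-fat SAAR diet (HF.SAAR). All 4 diets were free of cysteine and held equal nitrogen, so the control mice also ate no cysteine, and the SAAR diets held less methionine with glutamic acid in its place. Regular-fat and high-fat diets came from different makers, so fat content and maker cannot be told apart. The paper reports that the mice of the study were also injected with deuterated water and then drank deuterium-enriched water.

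Each library held between 16203094 and 21230092 estimated counts. Levels are given as counts-per-million values (CPM) after scaling by trimmed mean of M-values (TMM), and differences as log2 fold changes with the standard error of the fit. Marker transcripts of hepatocytes, such as Alb and Ttr, summed to between 71085 and 94736 CPM in each mouse, and those of cholangiocytes to between 35.2 and 62.1 CPM. Transcripts of 12 pancreatic acinar genes ranged from 35.4 CPM to 14363 CPM and were highest in HF.SAAR mouse 3, followed by HF.Ctrl mouse 2 (5218 CPM) and HF.SAAR mouse 2 (2952 CPM). In whole liver, fewer cells of a type and less RNA per cell cannot be told apart.

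Bile acids are made from cholesterol in hepatocytes. The classic route opens with 7-alpha-hydroxylation of cholesterol itself by Cyp7a1, the rate-limiting enzyme, whereas in the alternative route an oxysterol is formed first and is then 7-alpha-hydroxylated, by Cyp7b1 or, for 24-hydroxycholesterol, by Cyp39a1. Later enzymes change the sterol rings and shorten the side chain, and the finished bile acid is joined to taurine, the usual partner in mice and itself a product of cysteine.

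Cyp39a1 lies on the forward strand of chromosome 17, at chr17:43667425-43751431 (GRCm38). The deposited table gave nearly all of its counts to 3 coding transcripts, Cyp39a1-201 with 12 exons and 470 codons, Cyp39a1-203 with 11 exons and 420 codons, and Cyp39a1-204 with 11 exons and 404 codons. A further coding transcript, Cyp39a1-202, held 1 count in 1 HF.Ctrl mouse and 0 in the others. Exon 4 (chr17:43682948-43683097), which holds 150 bases and is absent from Cyp39a1-203, and exon 10 (chr17:43731925-43732013), which holds 89 bases and is absent from Cyp39a1-204, are printed because they are the coding sequence by which these transcripts differ from Cyp39a1-201. Capitals mark the exon and lower case the 30 bases on each side in the full transcript.
Cyp39a1 exon 4: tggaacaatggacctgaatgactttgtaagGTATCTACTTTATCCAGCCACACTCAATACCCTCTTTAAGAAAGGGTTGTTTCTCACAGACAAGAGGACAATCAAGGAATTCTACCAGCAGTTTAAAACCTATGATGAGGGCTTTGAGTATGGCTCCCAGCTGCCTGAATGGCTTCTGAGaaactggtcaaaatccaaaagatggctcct
Cyp39a1 exon 10: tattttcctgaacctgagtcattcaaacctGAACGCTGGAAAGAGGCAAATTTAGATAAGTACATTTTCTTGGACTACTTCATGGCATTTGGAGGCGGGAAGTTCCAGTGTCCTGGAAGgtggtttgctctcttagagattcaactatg
Exon 4 is a whole number of codons (50), so the reading frame goes on after it. The 89 bases of exon 10 are not, and Cyp39a1-204 reaches its stop codon early. The pattern of residues around the cysteine that binds haem in cytochrome P450 enzymes was found 1 time in the translated Cyp39a1-201 and Cyp39a1-203, with its cysteine encoded in exon 10, and 0 times in Cyp39a1-204.

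Cyp39a1 was higher in every SAAR mouse than in every control mouse, and the distance was wider on high fat. RF.Ctrl mice held 18.2, 17.9 and 15.7 CPM, and RF.SAAR mice 94, 87.0 and 79.3 CPM. HF.Ctrl mice held 12.3, 11.6 and 11.4 CPM, and HF.SAAR mice 130.2, 142 and 139 CPM. None of the 4 groups overlapped another, with HF.Ctrl lowest, then RF.Ctrl, RF.SAAR and HF.SAAR. The log2 fold change was 2.33 (SE 0.10), or 5.02-fold, on regular fat and 3.55 (SE 0.11), or 11.7-fold, on high fat, and it stayed between 2.26 and 2.40 and between 3.51 and 3.58 with any mouse left out.

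**Figure D1:**
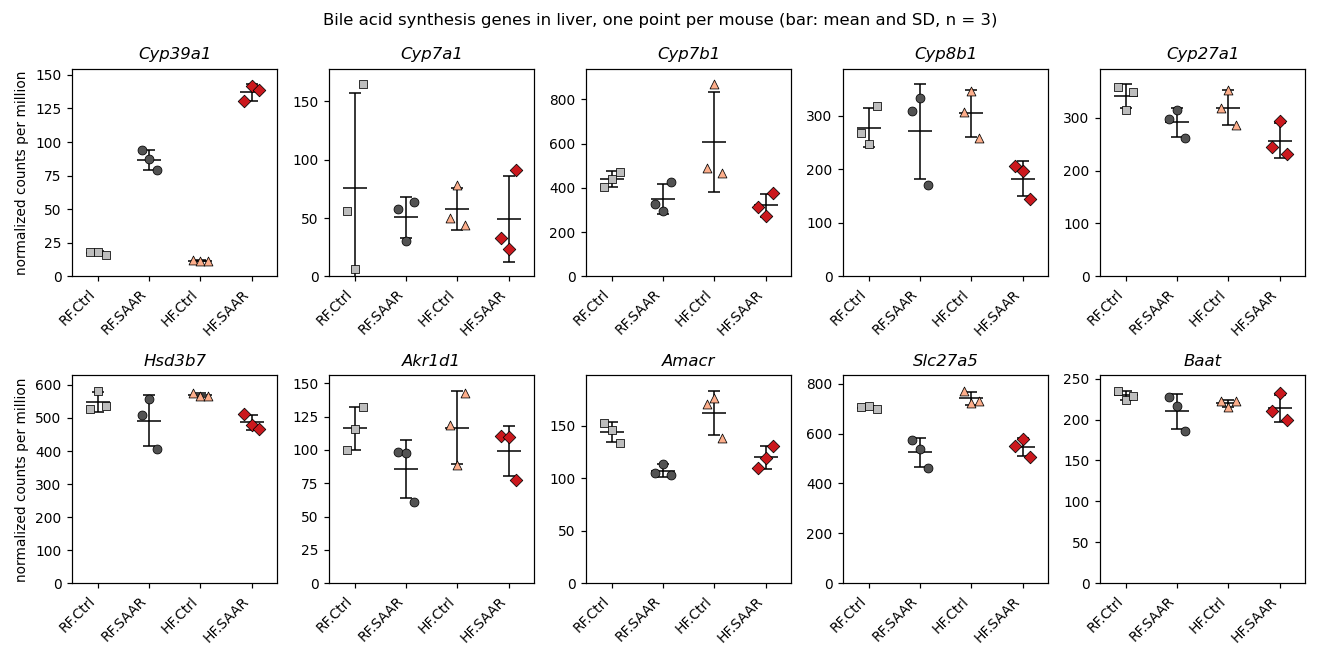
Normalized CPM (y axis, from 0) of each gene in the 4 diet groups, with 1 point per mouse and the mean with SD of 3 mice; the lower SD bar of Cyp7a1 in RF.Ctrl is cut at 0. Cyp39a1 lies between 11.4 and 18.2 CPM in the control groups and between 79.3 and 142 CPM in the SAAR groups, Slc27a5 and Amacr lie lower in SAAR mice at both fat contents, and Cyp7a1 spreads from 6.34 to 165 CPM within RF.Ctrl.

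The 2 responses of Cyp39a1 differed by 1.22 on the log2 scale (SE 0.14). It is given no test, since both responses were used to pick the gene. With 1 mouse left out the difference was 1.15 to 1.28, and without the 3 mice highest in acinar transcripts, which leaves a lone HF.SAAR mouse, it was 1.11. Of the other 9 genes 0 were called in the interaction of diet and fat by edgeR (quasi-likelihood test with Benjamini-Hochberg adjustment over all genes) or by DESeq2, against 0.00682% of all genes with edgeR, and Cyp8b1 alone of the 9 had an unadjusted p under 0.05.

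Between fat contents Cyp39a1 lay in opposite directions by diet. Among SAAR mice the high-fat group was 1.58-fold higher (log2 0.66, SE 0.10), a difference that stayed between 0.60 and 0.72 with any mouse left out and was 0.57 without the 3 mice highest in acinar transcripts. Among control mice the high-fat group was lower, by -0.56 on the log2 scale (SE 0.10). The mice did not overlap in either comparison, and these values too were used in picking the gene and are given no test.

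All 3 of the main Cyp39a1 transcripts were assigned more counts under SAAR. On regular fat, Cyp39a1-201 went from a mean of 6.60 to 20.3 CPM, Cyp39a1-203 from 5.33 to 34.7 CPM and Cyp39a1-204, which lacks exon 10, from 5.34 to 31.9 CPM. The same means on high fat were 3.22 and 30 CPM, 4.85 and 59.7 CPM, and 3.66 and 47.6 CPM. SAAR and control mice did not overlap for any of these transcripts at either fat content. The share of Cyp39a1 counts given to Cyp39a1-204 was 31.3% ± 7.65 (SD, n = 3) in RF.Ctrl, 36.6% ± 1.56 in RF.SAAR, 31.3% ± 7.07 in HF.Ctrl and 34.5% ± 6.24 in HF.SAAR, so the group means lay within the spread of the control mice. The share of Cyp39a1-201 was 31.6, 42.5 and 41.0% in RF.Ctrl and 30.4, 20.3 and 18.2% in RF.SAAR, lower in SAAR mice with no overlap. On high fat it was 34.7, 8.62 and 38.5% in HF.Ctrl and 26.2, 11.9 and 28.1% in HF.SAAR, and the groups overlapped. No test was made of these shares. The shares are the estimates of the authors' pseudoalignment, and reads across the exon junctions were not analysed here.

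**Figure D2:**
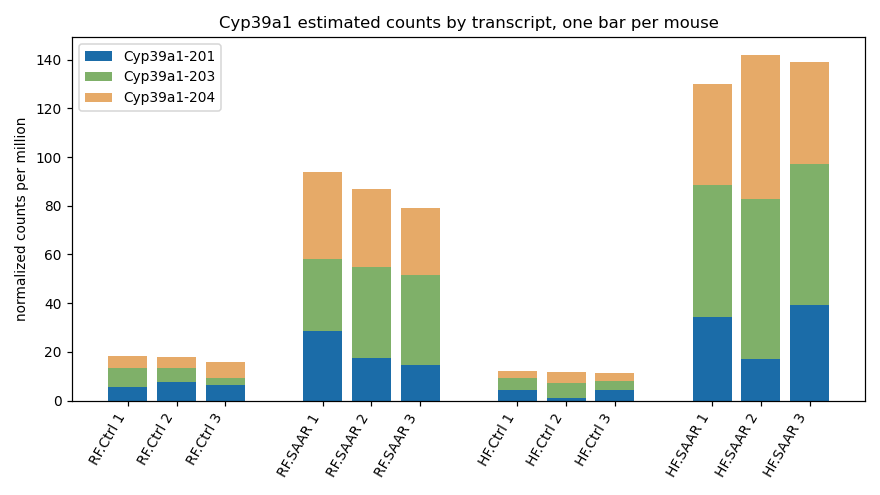
Normalized CPM of Cyp39a1 in each mouse (y axis, from 0), with each bar divided by the transcript to which the estimated counts were assigned. The 6 SAAR bars stand above the 6 control bars in all 3 colours, and the division within a bar varies from mouse to mouse.

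The neighbouring genes on chromosome 17 were low in liver. Slc25a27, a mitochondrial carrier whose start lies 210 bases from that of Cyp39a1 on the opposite strand, had a mean of 2.41 CPM in RF.Ctrl and 2.99 CPM in RF.SAAR, 2.39 CPM in HF.Ctrl and 3.44 CPM in HF.SAAR. SAAR mice differed from control mice by 0.31 on the log2 scale (SE 0.30, adjusted p = 0.748) on regular fat and 0.53 (SE 0.30, adjusted p = 0.531) on high fat. Rcan2, a calcineurin regulator 49919 bases beyond the other end, had group means of 1.74 to 3.09 CPM and log2 fold changes of 0.70 (SE 0.27, adjusted p = 0.265) and 0.28 (SE 0.27, adjusted p = 0.747). Neither passed the threshold. Cyp39a1 was picked by its own 2.33 and 3.55, so its distance from the neighbours is given no test. Whether the neighbours changed by a smaller amount could not be read at these counts.

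Across the 12 mice, the genes whose log2 CPM ran closest to Cyp39a1 were Hspa9, the mitochondrial heat shock protein 70 (Pearson's r = 0.977), the glutathione transferase Gstm1 (0.977), Pir (0.975), the stress-response transcription factor Atf5 (0.974) and the glucuronosyltransferase Ugt1a9 (0.973). The 3 most opposite were complement C9 (-0.989), the carboxylesterase Ces3a (-0.98) and complement C6 (-0.973). These values describe mostly the step between control and SAAR mice: with group means removed, r fell to between -0.563 and 0.378 for the first 5. Gstm1 and Ugt1a9 share sequence with near relatives, so their counts are uncertain. Of the other bile acid genes, Slc27a5 was the most opposite to Cyp39a1 (r = -0.899) and Cyp7a1 the least related (r = -0.0788). With group means removed the sign for Slc27a5 turned (r = 0.649), and the 9 genes ran from -0.398 to 0.649.

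Per length, Cyp39a1 changed place among the 10 genes. The TPM scale (transcripts-per-million), which divides by transcript length and so allows genes to be compared, put it last in RF.Ctrl (7.59 ± 0.649 TPM, SD, n = 3) and in HF.Ctrl (4.94 ± 0.427 TPM), although a mouse of RF.Ctrl held less Cyp7a1 (1.69 TPM) than any held Cyp39a1. It stood 8th of 10 in RF.SAAR (48.5 ± 5.28 TPM) and HF.SAAR (72.6 ± 5.11 TPM). In HF.SAAR it stood above Akr1d1 (50.4 ± 8.46 TPM) with no overlap of mice, and its mice overlapped those of Amacr (83.7 ± 16.3 TPM). In RF.SAAR its mice overlapped those of Akr1d1 just below it. Slc27a5 and Hsd3b7 led the order in every group, with means from 343 to 407 TPM, and their mice overlapped each other in each group. Cyp39a1 made up 0.459% of the summed TPM of the 10 genes in RF.Ctrl, 2.83% in RF.SAAR, 0.31% in HF.Ctrl and 4.59% in HF.SAAR.

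**Figure D3:**
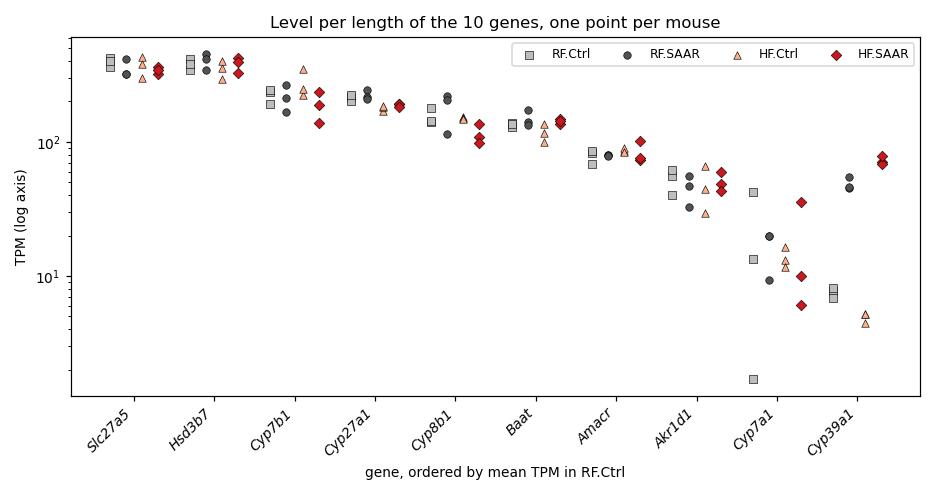
TPM of each gene (log axis), ordered by the mean in RF.Ctrl, with 1 point per mouse and a symbol for each diet group. Cyp39a1 stands last in both control groups and near Akr1d1 and Amacr in the SAAR groups, and the Cyp7a1 points of RF.Ctrl reach from 1.69 to 42.3 TPM.

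The other 9 genes had a log2 fold change under SAAR below 0 at both fat contents, from -0.58 to -0.04 on regular fat (median -0.33) and from -0.92 to -0.04 on high fat (median -0.31). The share of all tested genes below 0 was 50.2% in each comparison, and the median over all genes was -0.001. This direction depends on the scaling. Without TMM factors the median over all genes moved to 0.16 and 0.17, and 6 of the 9 were below 0 on regular fat and 8 on high fat. By mean TPM 4 of the 9 were lower in SAAR mice at each fat content, where the median over all genes was 0.26 and 0.33. On each of these scales all 9 lay below the median over all genes. Of the 9, 1 gene, Slc27a5, was called on regular fat and on high fat, against 0.879% and 0.961% of all genes called lower. With fat contents averaged, where all 9 were again below 0 (50.7% of all genes), Slc27a5, Amacr and Cyp7b1 were called, 3 of 9 against 3.7% of all genes called lower. Leaving out the 3 mice highest in acinar transcripts leaves a lone HF.SAAR mouse, so calls of these 9 genes are not counted from that fit.

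**Figure D4:**
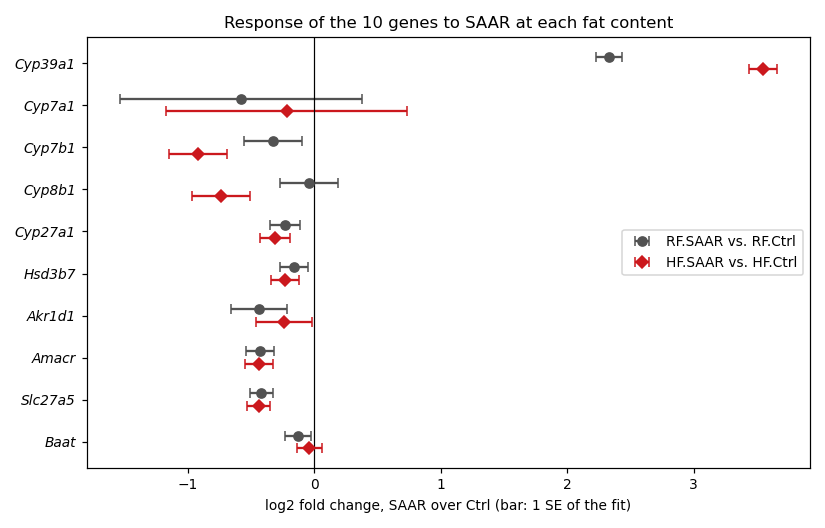
Log2 fold change of SAAR over control (x axis) for each gene on regular fat (circles) and high fat (diamonds), with bars of 1 standard error of the fit. Cyp39a1 stands at 2.33 and 3.55, the 9 others lie between -0.92 and -0.04, and Cyp7a1 has the widest error.

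Slc27a5, the bile acyl-CoA synthetase that activates bile acids before conjugation (chr7:12988346-12998192, reverse strand), was lower in TMM-scaled CPM under SAAR at both fat contents, by a similar amount. Its values were 706, 709.8 and 697 CPM in RF.Ctrl against 575, 537 and 462 CPM in RF.SAAR. On high fat they were 771, 721 and 731 CPM in HF.Ctrl against 551, 578 and 507 CPM in HF.SAAR. No SAAR mouse reached the lowest control mouse on this scale. By TPM the mice overlapped at both fat contents, with means of 394 in RF.Ctrl and 352 in RF.SAAR, and 371 in HF.Ctrl and 343 in HF.SAAR. The log2 fold change was -0.42 (SE 0.09, adjusted p = 0.0404) on regular fat, -0.44 (SE 0.09, adjusted p = 0.0282) on high fat and -0.43 (SE 0.07, adjusted p = 0.00168, edgeR) averaged over fat. The averaged call held without any 1 mouse, whereas on regular fat it was lost without any 1 of the 3 RF.Ctrl mice, RF.SAAR mice 2 or 3, HF.Ctrl mice 1 or 2, or HF.SAAR mouse 1 (adjusted p from 0.0531 to 0.188). On high fat the call was lost without HF.Ctrl mice 1 or 3 or HF.SAAR mice 1 or 3 (adjusted p from 0.0704 to 0.134). At both fat contents it was also lost with library size alone and with the compared groups alone. Baat, which joins the activated bile acid to taurine or glycine (chr4:49489422-49506557, reverse strand), ranged from 186 to 235 CPM over all mice. On the log2 scale SAAR mice differed by -0.13 (SE 0.10, adjusted p = 0.645) on regular fat and by -0.04 (SE 0.10, adjusted p = 0.926) on high fat, and it was above 0 without TMM factors.

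Amacr, the racemase that turns the side chain into the form open to oxidation (chr15:10981756-10996626, forward strand), held 153, 146 and 134 CPM in RF.Ctrl against 105, 114 and 103 CPM in RF.SAAR. HF.Ctrl mice held 171, 177 and 138 CPM and HF.SAAR mice 109.6, 119 and 131 CPM, so SAAR and control mice did not overlap at either fat content. Within each fat content it missed the threshold (log2 -0.43, SE 0.11, adjusted p = 0.0912, and log2 -0.44, SE 0.11, adjusted p = 0.076), and passed it without HF.Ctrl mouse 3 (adjusted p = 0.0478 and 0.0311), with protein-coding transcripts alone (adjusted p = 0.0394 and 0.0463) and with DESeq2 (adjusted p = 0.0103 and 0.00661). By mean TPM it stood at 78.6 in RF.Ctrl and 79.1 in RF.SAAR, and at 86.2 in HF.Ctrl and 83.7 in HF.SAAR. Averaged over fat it fell by 0.43 on the log2 scale (SE 0.08, adjusted p = 0.00603, edgeR), a call that held without any 1 mouse and was lost with effective-length offsets (adjusted p = 0.105).

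Hsd3b7, the ring dehydrogenase of the first steps after 7-alpha-hydroxylation (chr7:127800604-127803802, forward strand), ranged from 407 to 582 CPM. Under SAAR it differed by -0.16 on the log2 scale (SE 0.11, adjusted p = 0.60) on regular fat and -0.23 (SE 0.11, adjusted p = 0.412) on high fat. For Akr1d1, the 5-beta-reductase of the sterol ring (chr6:37530173-37568815, forward strand), the range was 60.9 to 143 CPM, with log2 fold changes of -0.44 (SE 0.22, adjusted p = 0.425) and -0.24 (SE 0.22, adjusted p = 0.744). Neither was called in any comparison.

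Of the hydroxylases other than Cyp39a1, edgeR with all mice called Cyp7b1 alone, with fat contents averaged, whereas DESeq2 also called Cyp7b1 and Cyp8b1 on high fat and Cyp27a1 with fat contents averaged. Cyp7b1, the oxysterol 7-alpha-hydroxylase, which is more abundant in male than in female mouse liver (chr3:18071950-18243338, reverse strand), held 403, 439.8 and 474 CPM in RF.Ctrl and 327, 295 and 428 CPM in RF.SAAR. On high fat the control mice held 489, 870.1 and 469 CPM and the SAAR mice 315, 272 and 377 CPM. Mouse 2 of HF.Ctrl stood far above its group, and it was also the second highest of all mice in acinar transcripts, whose part in this value was not tested. SAAR and control mice overlapped on regular fat and not on high fat, with log2 fold changes of -0.33 (SE 0.23, adjusted p = 0.61) and -0.92 (SE 0.23, adjusted p = 0.0686), the latter -0.58 without that mouse. DESeq2 called the high-fat difference (adjusted p = 0.00125). Averaged over fat Cyp7b1 fell by 0.63 on the log2 scale (SE 0.16, adjusted p = 0.0371, edgeR). The call was lost without any 1 of the 3 RF.Ctrl mice, RF.SAAR mice 1 or 2, or HF.SAAR mice 1 or 2 (adjusted p from 0.0571 to 0.0888). It was also lost with library size alone and with no low-count filter. Without the 3 mice highest in acinar transcripts, which leaves a lone HF.SAAR mouse, the averaged log2 difference was -0.47.

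Cyp8b1, the 12-alpha-hydroxylase that directs synthesis to cholic acid (chr9:121914356-121916305, reverse strand), held 307, 347 and 259 CPM in HF.Ctrl and 207, 196 and 145 CPM in HF.SAAR, with no overlap. RF.Ctrl mice held 268, 247 and 319 CPM and RF.SAAR mice 309, 334 and 170.0 CPM, with mouse 3 of RF.SAAR below and the other 2 within or above the control range. The log2 fold change was -0.74 (SE 0.23, adjusted p = 0.154) on high fat and -0.04 (SE 0.23, adjusted p = 0.975) on regular fat, and their difference was -0.70 (SE 0.32, adjusted p = 0.999). With all mice edgeR did not call Cyp8b1 at either fat content, whereas on high fat it was called without RF.SAAR mouse 3 (adjusted p = 0.028) and by DESeq2 (adjusted p = 0.0235). Cyp27a1, the mitochondrial sterol 27-hydroxylase that opens the alternative route (chr1:74713574-74737892, forward strand), ranged from 231 to 358 CPM. Under SAAR the log2 difference was -0.23 (SE 0.12, adjusted p = 0.447) on regular fat, -0.31 (SE 0.12, adjusted p = 0.258) on high fat and -0.27 (SE 0.08, adjusted p = 0.0731) averaged over fat, where it was called without HF.SAAR mouse 2 (adjusted p = 0.0303) and by DESeq2 (adjusted p = 0.0352).

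Cyp7a1, the rate-limiting enzyme of the classic route (chr4:6265612-6275633, reverse strand), varied more between mice of a group than between groups. RF.Ctrl mice held 56.0, 6.34 and 165 CPM and RF.SAAR mice 57.5, 30.3 and 63.9 CPM. HF.Ctrl mice held 50.1, 77.9 and 44.4 CPM and HF.SAAR mice 33.0, 23.7 and 91.3 CPM. All 4 groups overlapped, and the log2 fold changes of -0.58 (SE 0.96, adjusted p = 0.887) and -0.22 (SE 0.95, adjusted p = 0.965) had standard errors close to 1 on the log2 scale. Leaving out RF.Ctrl mouse 3 turned the regular-fat value to 0.70, so no direction was set for Cyp7a1. Nr0b2, the small heterodimer partner that represses Cyp7a1, was also uneven among RF.Ctrl mice, from 12.9 to 57.5 CPM. Nr1d1, another of the listed regulators, ranged there from 54.2 to 126 CPM. Both were named after their values were seen, and their part in the spread of Cyp7a1 was not tested.

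On regular fat 4 of the 10 genes (Cyp27a1, Akr1d1, Amacr and Slc27a5) had every SAAR mouse below every control mouse, against 9.71% of all genes, and on high fat 5 (Cyp7b1, Cyp8b1, Hsd3b7, Amacr and Slc27a5), against 8.96%. For the 9 genes other than Cyp39a1 the log2 fold change of high over regular fat ran from -0.40 to 0.47 in control mice and from -0.57 to 0.21 in SAAR mice, with adjusted p of 0.819 or more. None of the 9 was called by edgeR or by DESeq2, against 0% of all genes in control mice and 0.0477% in SAAR mice with edgeR. At an unadjusted p under 0.05 there were 0 of the 9 in control mice (3.59% of all genes) and 1, Cyp8b1, in SAAR mice (5.59%). Averaged over diet 0 of the 9 were called by edgeR or by DESeq2, against 0.0409% of all genes with edgeR, and 0 had an unadjusted p under 0.05, against 5.84% of all genes. Cyp39a1 itself averaged 0.05 (SE 0.07) there, its 2 opposite differences having cancelled, and was -0.01 without TMM factors.

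Genes around the pathway were read from lists chosen with earlier results of these data known, in the comparison averaged over fat, where 6.91% of all genes were called in either direction. Of 9 further synthesis enzymes, 8 were tested and 2 were called, both lower, against 3.7% of all genes called lower: Scp2, the thiolase and sterol carrier of side-chain shortening (log2 -0.53, SE 0.07, adjusted p = 0.00086), and Cyp2a12 (log2 -0.43, SE 0.07, adjusted p = 0.00217). Abcd3 (-0.16, SE 0.07) and Cyp2c70, which makes muricholic acid (-0.49, SE 0.22), were not called, and the median of the 8 was -0.15. Scp2 means went from 5086 ± 484 CPM (SD, n = 3) to 3618 ± 511 CPM on regular fat and from 5218 ± 184 to 3515 ± 159 CPM on high fat.

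Of 18 regulators of synthesis, 2 rose and 1 fell (median 0.08), 3 of 18 against 6.91% of all genes. Ppargc1a, the coactivator PGC-1 alpha, rose by 0.79 (SE 0.16, adjusted p = 0.0107) and the nuclear receptor Nr1i3 by 0.58 (SE 0.15, adjusted p = 0.0421). Nr1i2 was at 0.32 (SE 0.10, adjusted p = 0.0715). The bile acid receptor Nr1h4 (0.14, SE 0.09) and its partner in control of Cyp7a1, Nr5a2 (0.02, SE 0.11), were not called, and these 2 were named after their values were seen. Within fat contents, 0 of the 18 were called on regular fat and 1, Ppargc1a, on high fat, against 1.48% and 1.97% of all genes. Ppargc1a means were 11.3 CPM in RF.Ctrl and 14.7 CPM in RF.SAAR, with overlap of mice. They were 7.66 CPM in HF.Ctrl and 17.4 CPM in HF.SAAR, without overlap.

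Of 14 genes of bile acid and sterol transport, 12 were tested, 2 rose and 1 fell (median -0.02), 3 of 12 against 6.91% of all genes. The phospholipid transporter Abcb4 rose by 0.30 (SE 0.07, adjusted p = 0.0254) and the uptake carrier Slco1a4 by 0.73 (SE 0.19, adjusted p = 0.0434), and Slco1a1 fell, with a log2 difference of -0.43 (SE 0.09, adjusted p = 0.0108). Abcg8, a sterol exporter, was at 0.31 (SE 0.09, adjusted p = 0.0588). At either fat content alone 0 of the 12 were called, against 1.48% of all genes on regular fat and 1.97% on high fat. Slco1a4 means were 35.2 CPM in RF.Ctrl and 43.4 CPM in RF.SAAR, with overlap of mice. They were 23 CPM in HF.Ctrl and 51.5 CPM in HF.SAAR, without overlap. Of 4 genes of taurine supply, 3 were tested (median 0.21) and 1 was called, against the same 6.91%. Csad, which decarboxylates cysteine sulfinate on the way to taurine, rose by 1.03 (SE 0.22, adjusted p = 0.018). Its means were 120.1 ± 42.1 CPM in RF.Ctrl, 324 ± 43.9 CPM in RF.SAAR, 71.6 ± 23.9 CPM in HF.Ctrl and 110.1 ± 21.1 CPM in HF.SAAR. Cdo1 (0.21, SE 0.09) and Slc6a6 (0.17, SE 0.14) were not called. At either fat content alone 0 of the 3 taurine genes were called, against the same 1.48% and 1.97%.

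Cyp39a1 is known as a female-predominant and Cyp7b1 as a male-predominant liver transcript in mice, so sex-biased genes were read beside them. Both sex-biased lists were chosen with earlier results of these data known, so their counts are a description and no test of the lists. Of 13 male-biased genes 10 were called lower and 0 higher (median -1.13), against 3.7% of all genes called lower and a median of -0.004 over all genes. The 4 with the smallest p were C6 (log2 -1.43, SE 0.10, adjusted p = 4.28e-06), Selenbp2 (-2.55, SE 0.19, adjusted p = 3.44e-05), Cyp2d9 (-0.82, SE 0.08, adjusted p = 6.63e-05) and Nudt7 (-1.23, SE 0.16, adjusted p = 0.000741). C6 is also among the genes most opposite to Cyp39a1 above, and Slco1a1 is counted among the transporters too. Of 11 female-biased genes only 3 passed the filter on low counts and 0 were called by edgeR: Acot3 (2.16, SE 0.57, adjusted p = 0.0538), Cux2 (0.50, SE 0.17, adjusted p = 0.0981) and Cyp2b9 (0.09, SE 0.74, adjusted p = 0.969).

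**Figure D5:**
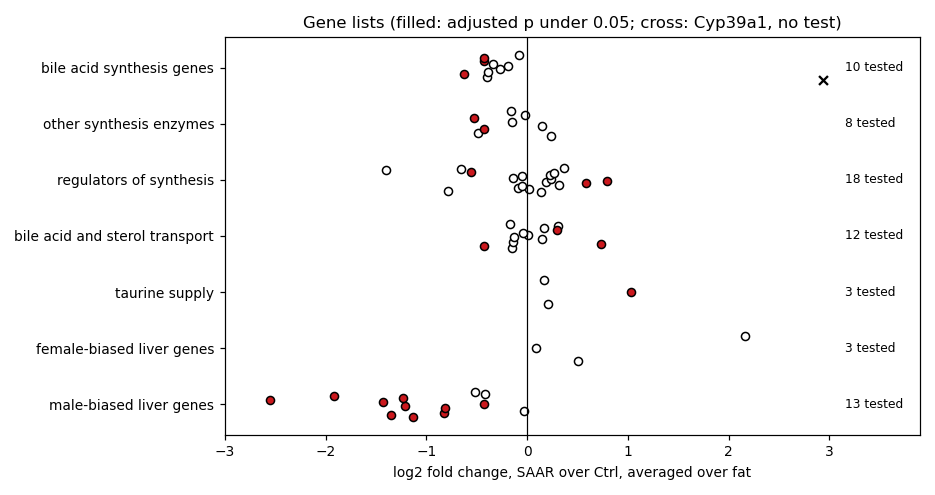
Log2 fold change of SAAR over control, averaged over fat (x axis), for the tested genes of each list, with filled points for an adjusted p under 0.05 and a cross for Cyp39a1, which was given no test. Of the male-biased genes 10 of 13 are filled and below 0, and the other lists hold points on both sides of 0 except for the female-biased and taurine genes, of which 3 each were tested.

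Hepatocyte zone and cell type markers moved in part. Averaged over fat, where 6.91% of all genes were called, 1 of 8 pericentral genes was called, Rgn (-0.56, SE 0.06, adjusted p = 0.00017), with Glul at 0.22 (SE 0.07), Oat at 0.35 (SE 0.11) and Cyp2e1 at -0.15 (SE 0.06). Of 8 periportal genes Hsd17b13 rose by 0.63 (SE 0.07, adjusted p = 0.000119), Cyp2f2 (-0.51, SE 0.07, adjusted p = 0.000823) and Hal (-0.56, SE 0.15, adjusted p = 0.0401) fell, and Cdh1 was at 0.33 (SE 0.11). Summed hepatocyte markers ranged from 75171 to 94736 CPM in control mice and from 71085 to 82592 CPM in SAAR mice, with 1 of 6 called, Serpina1c (-0.52, SE 0.07, adjusted p = 0.000522). Cholangiocyte markers summed to 43.0 to 62.1 CPM in control and 35.2 to 43.1 CPM in SAAR mice, with 1 of 5 tested called, Spp1 (-0.46, SE 0.09, adjusted p = 0.00766). For stellate cells Lrat was called (-0.59, SE 0.14, adjusted p = 0.0177), 1 of 6, and for Kupffer cells 0 of 6. Their part in the values of the bile acid genes was not tested.

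Promoter sequence was at hand for 4 of the 10 genes, Cyp27a1, Akr1d1, Hsd3b7 and Cyp8b1, in the RefSeq table for GRCm38. The 250 bases before each start were searched on both strands. The antioxidant response element core TGACNNNGC, the LRH-1 type site CAAGGNCA and TATAAA were found for Cyp8b1, and the STAT5 type motif TTCNNNGAA for Hsd3b7, while the ATF4 type motif TGATGNAA was found for 0 of the 4, and no matches overlapped. Of all 32851 promoters in the table these motifs were held by 10.2%, 5.53%, 12.4%, 7.02% and 3.45%, in that order.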

How the data were processed

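Poly(A)-selected RNA was sequenced as paired 150-base reads. The authors checked and trimmed reads with FastQC and cutadapt and pseudoaligned them with kallisto to the Ensembl release 94 mouse transcriptome. The deposited files hold, per transcript, estimated counts, TPM and effective lengths. Of 118489 transcripts, 116816 matched GENCODE M21 by identifier and version, and the others held 1.08% of counts. Estimated counts were summed per gene, rounded, filtered with filterByExpr, scaled by TMM and tested with edgeR 4.0.16 (robust quasi-likelihood F-test, a coefficient for each group, all 12 mice, R 4.3.3), with Benjamini-Hochberg adjustment over 14670 genes and a threshold of 0.05. The script was tested on simulated data. The common biological coefficient of variation was 0.215. DESeq2 1.42.0, other scalings, filters, effective-length offsets and leaving out each mouse were alternatives. The members and lists, some of them taken from an earlier reading of these files, were chosen with earlier results of these data known. Named were all 10 genes, up to 4 genes with the smallest p of each list, the 5 genes most like and 3 most opposite to Cyp39a1, and its neighbours; values of 1 listed gene are not reported here. Replicate mice were numbered in the order of the labels, and no 2 libraries were identical.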

Additional observations from a re-analysis of the deposited data

How the results depend on the processing

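No paired analysis was possible because the labels give the mice no shared replicate numbers. Counts of the 10 genes called moved as follows; they hold Cyp39a1, which its own responses chose, so nothing about it is read from them. Counts of all genes called higher and lower under the same setting are in brackets. Regular-fat SAAR gave 2 (88 and 129 of 14670), and 1 with library size alone (359 and 66) or the compared groups alone (65 and 94 of 13966). It gave 3 with DESeq2 (262 and 329 of 23934) or protein-coding transcripts alone (88 and 122 of 13822), and 1 to 3 with 1 mouse left out. High-fat SAAR gave 2 (148 and 141), and 1 with library size alone (639 and 80) or the compared groups alone (99 and 91 of 13978). It gave 5 with DESeq2 (316 and 279), 3 with protein-coding transcripts alone (134 and 132), and 1 to 3 with 1 mouse left out. The fit without the 3 mice highest in acinar transcripts (acinar-high mice) was added after seeing the data. It leaves a lone HF.SAAR mouse, so its counts are not given. For fat in control mice, fat in SAAR mice and the interaction, no gene of the 10 other than Cyp39a1 was called under any setting. Counts there would only repeat the call of Cyp39a1 and are left out. Averaged SAAR gave 4 (471 and 543 of 14670), 3 to 5 in all, and averaged fat gave 0 throughout.

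With library size alone, which moved the median of all genes by 0.16 in the averaged comparison and its share of higher calls from 46.4% to 88.8%, these values turned: Cyp8b1 0.12, Hsd3b7 0.00 and Baat 0.04 on regular fat, Baat 0.12 on high fat and 0.08 averaged, and Cyp39a1 -0.01 for averaged fat. With 1 mouse left out, Cyp7a1 ran from -1.13 to 0.70 on regular fat, -1.02 to 0.11 on high fat and -0.80 to 0.24 averaged, Cyp8b1 from -0.22 to 0.22 on regular fat, and Baat from -0.11 to 0.01 on high fat; without the acinar-high mice no value turned. The cause of these moves was not tested. The rank of Cyp39a1 by TPM was the same on log2(TPM + 1). Of the 5 genes most like Cyp39a1, 3 were shared by Spearman's rho and 0 with group means removed. TGACNNNGC was found for 0 genes in the 100 bases before the start, and the other motifs for as many as in 250.

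With 3 mice per group, differences of the size seen for Baat or Hsd3b7 lay within 3 standard errors, and Cyp7a1 could not be read. Estimated counts carry no error of the transcript assignment, which bears most on the transcripts of Cyp39a1.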
